A study of Mus musculus with 6 samples.

Results

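Potassium channel genes were followed in the dorsal striatum of young mice with the G2019S mutation of Lrrk2, the kinase gene mutated in some inherited forms of Parkinson's disease. The deposited table of gene levels names 90 genes that start with Kcn. Of these, 81 were taken as members by name, being the genes with Kcn followed by a letter and a digit together with Kcnma1 and the Kcnmb, Kcnab and Kcnip genes. The 9 others (Kcnip1, Kcnj8, Kcnj10, Kcnrg and 5 antisense or overlapping transcripts) were left out. The 81 members, of 23067 genes in all, are 28 voltage-gated pore-forming genes, 9 silent voltage-gated genes, 10 auxiliary subunits, 12 inward rectifiers, 11 two-pore genes and 11 genes of the calcium-activated and related Slo channels. A further 9 coding genes of these families in the GENCODE annotation were not analysed here.

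RNA from whole dissected tissue was sequenced in 3 libraries from mice homozygous for the knock-in (genotype Lrrk2G2019S/G2019S) and in 3 from wild-type mice (Lrrk2WT/WT), all at postnatal day 21 and untreated as far as the labels say. A knock-in carries the change in the gene's own place in every cell, so no promoter or Cre line limits it. Levels are in FPKM, which scale the fragments counted on a gene by transcript length and library size, so that genes of different length can be compared. The labels do not say whether the 3 samples of a genotype are 3 different mice. The p-values therefore reflect only how much these samples vary, and some of that variation may be technical.

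Potassium channels let potassium leave the cell and so set the resting potential, shape the action potential and limit repeated firing. Voltage-gated channels open on depolarization, inward rectifiers pass current mainly near rest, two-pore channels give a steady leak, and calcium-activated channels link calcium entry to the pause after a spike. Projection neurons, the main cell type of the striatum, are known for a strongly negative resting potential held by inward rectifiers and for A-type voltage-gated currents that delay the first spike.

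Some facts about the libraries bear on the values. The striatal markers Ppp1r1b, Drd1 and Drd2 were high in every library, with Ppp1r1b at 750.5 to 835 FPKM. All samples are titled male, yet Xist, the RNA of the inactive X chromosome, stood at 27.2 to 39.3 FPKM in all 6, against what the titles give. The Y-linked genes Ddx3y, Eif2s3y, Uty and Kdm5d are not among the deposited genes, so they give no values to set beside it. Slc17a7, which loads glutamate into the vesicles of cortical neurons, was measured at 11.0, 3.55 and 2.73 FPKM in wild-type replicates 1 to 3 and at 29.9, 25.2 and 3.41 FPKM in knock-in replicates 1 to 3, and the 12 cortical excitatory markers summed to 53.4 to 71.3 FPKM over the wild-type and to 55.9 to 107 FPKM over the knock-in libraries. Ttr, the transthyretin of choroid plexus, reached 374 FPKM in wild-type replicate 2 and lay between 2.12 and 16.2 FPKM elsewhere. The 6 oligodendrocyte markers summed to 2584 to 2910 FPKM over the wild-type and to 2088 to 2551 FPKM over the knock-in libraries, which do not overlap. The summed markers of oligodendrocyte precursors (46.9 to 49.2 FPKM in wild type, 33.3 to 45.1 FPKM in knock-in) and of ependyma (15.8 to 17.1 and 10.4 to 14.1 FPKM) were likewise lower in all knock-in libraries. Taken singly, 2 of the 6 oligodendrocyte, 1 of the 3 precursor and 2 of the 3 ependyma markers were lower in every knock-in library. So were 2 of the 3 choroid plexus, 1 of the 6 astrocyte and 1 of the 5 endothelial and mural markers. The same held for 6.58% of the genes compared below. In these lists 0 markers were higher in every knock-in library, beside 2.92% of the genes compared below. The sums of the other 8 marker lists overlapped, among them microglia (63.3 to 65.0 and 63.9 to 70.2 FPKM) and astrocytes (328 to 347 and 307 to 333.5 FPKM). The part of these cell types in the levels below was not tested. In bulk tissue, fewer cells of a type and less RNA per cell cannot be told apart.

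The comparison of genotypes asked whether any potassium channel gene differed in knock-in striatum. Of the 81 members, 52 had a mean of at least 1 FPKM and were tested on log2(FPKM + 1) with limma, a linear model over all 14156 genes that reach that mean. On this scale the change of a gene near 0 comes out too small. Of the 52, 0 were called at an adjusted p under 0.05, beside 0.0212% of all genes tested. Adjusted p-values of the 52 lay between 0.9975 and 0.9989 in limma. At an unadjusted p under 0.05 the count was again 0, where 4.27% of all genes tested passed, 1.25% as higher and 3.02% as lower in knock-in. Estimates were above 0 for 28 members and below 0 for 24, and their median log2 difference, knock-in minus wild type, was 0.010, beside -0.014 over all genes tested.

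How large a difference could have been missed is shown by the intervals. Folds with an interval, here and below, are folds of FPKM + 1. Bounds for the level itself are wider, most of all in genes at a few FPKM. The 95% interval of the fold lay between 0.80 and 1.25 for 39 of the 52 members (75.0%), beside 72.4% of all genes tested. On this scale the lowest bound of any member was 0.757, for Kcna1, and the highest was 1.70, for Kcnc4. The groups did not overlap for 2 tested members, Kcns1 among them, both higher in knock-in, beside 2.92% of all genes tested. For 0 of the 52 did all knock-in libraries lie below all wild-type libraries, beside 6.58% of all genes tested. Between the highest and the lowest of the 6 libraries the median range was 1.28-fold for tested members and 1.25-fold for all genes tested, so the members varied between libraries about as much as other genes.

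**Figure D1:**
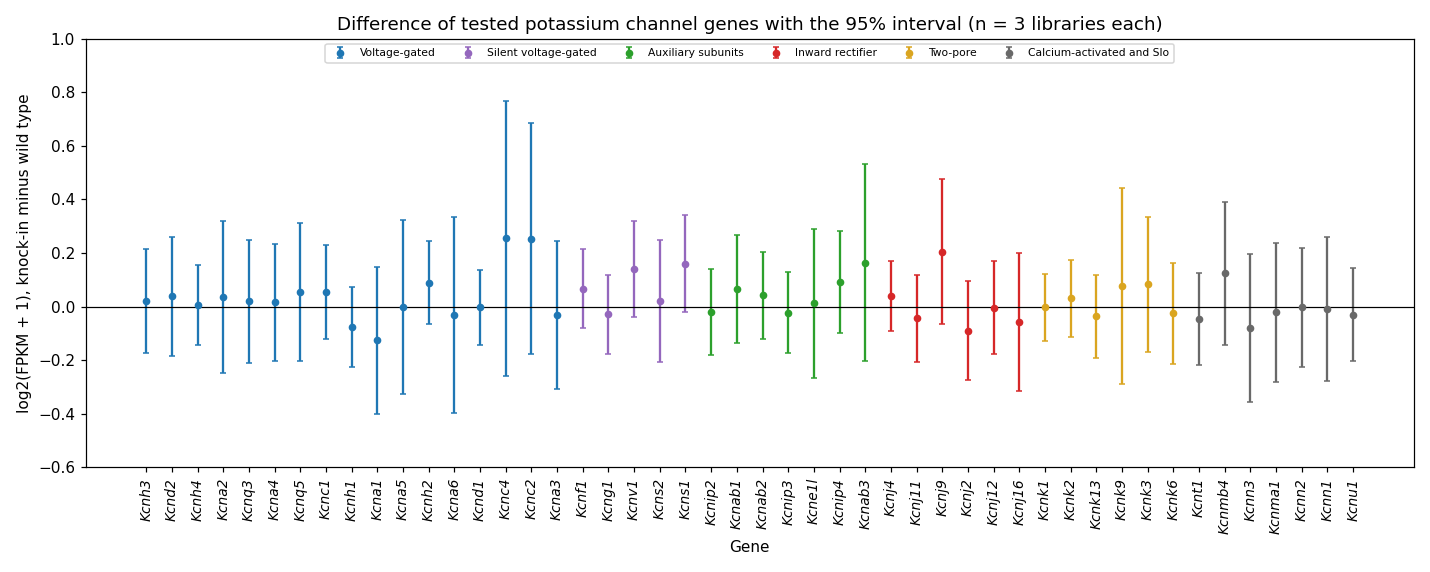
Difference between genotypes for 48 of the 52 tested potassium channel genes, as log2(FPKM + 1) in knock-in minus wild type on the vertical axis, with bars for the 95% interval from limma over 3 libraries each and colours for the classes. Every interval includes 0, and the widest belong to Kcnc4 and Kcnc2.

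Levels were also summed over each class, with no test. The auxiliary subunits reached 269 ± 10.8 FPKM (wild type) and 272 ± 2.82 FPKM (knock-in; SD, n = 3 each), the most of any class, and the voltage-gated genes 225 ± 3.90 and 228 ± 14.4 FPKM. Inward rectifiers summed to 131 ± 0.159 and 134 ± 1.72 FPKM. All 3 knock-in sums of inward rectifiers, from 132 to 136 FPKM, were above the wild-type sums of 131 FPKM. Kcnj4 made up 70.4% of the class, yet its 91.7 FPKM in knock-in replicate 1 was its lowest level in any library. Kcnj9, by contrast, peaked in that replicate with 13.2 FPKM. Among the 6 tested rectifiers, 2 estimates were above 0 and 4 below, and 0 were higher in all knock-in libraries. The higher sums were therefore not shared by most members. Two-pore genes summed to 90.6 ± 2.17 and 91.8 ± 2.35 FPKM, silent voltage-gated genes to 48.5 ± 1.55 and 50.5 ± 1.13 FPKM, and calcium-activated and Slo genes to 47.4 ± 1.11 and 47.2 ± 2.34 FPKM. In each of the 5 classes other than the inward rectifiers the libraries of the genotypes overlapped. All 81 members together took 0.247% to 0.263% of the summed FPKM of a library.

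**Figure D2:**
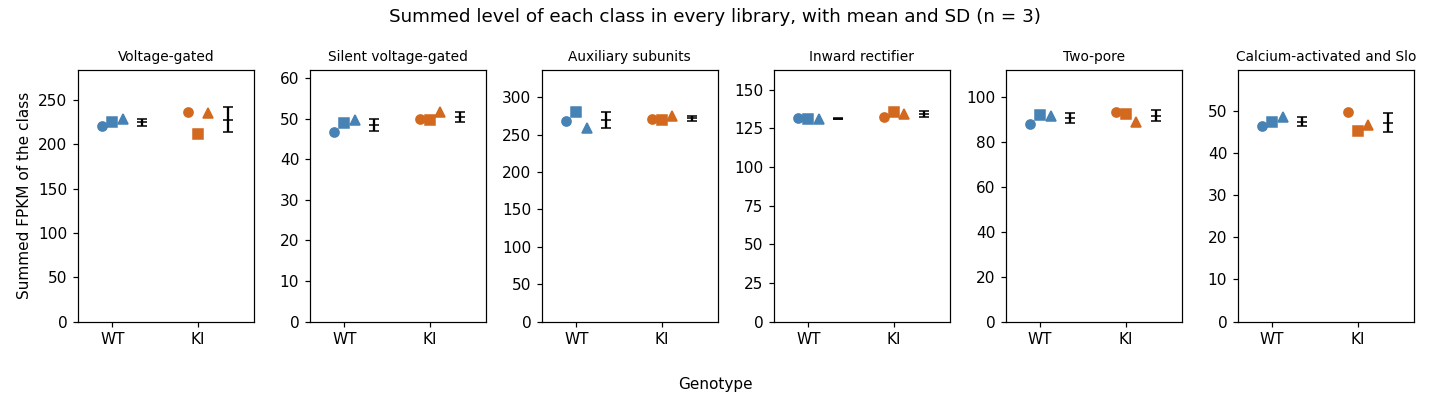
Summed FPKM of each class of potassium channel genes on the vertical axis, starting at 0, for the 3 wild-type (blue) and 3 knock-in (orange) libraries, with the mean and SD beside them in black. The sums of inward rectifiers stand at 131 FPKM in each wild-type library and at 132 to 136 FPKM in knock-in, and the knock-in voltage-gated sums spread the most, from 211 to 237 FPKM. Sums are not scaled to the total FPKM of a library, which was also higher in every knock-in library.

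A few genes carried most of each class. Kcnip2 had the highest mean of all members, followed by Kcnj4, Kcnab1, Kcnk1, Kcnab2 and Kcnh3, and these were the 6 members at a mean of at least 40 FPKM. The 4 most abundant members held 93.1% of the summed level of the auxiliary class, 93.2% of the inward rectifiers, 93.4% of the two-pore genes, 91.1% of the silent genes and 85.0% of the calcium-activated class. Among voltage-gated pore-forming genes the 4 held 44.4%, so that class was spread over more genes.

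**Figure D3:**
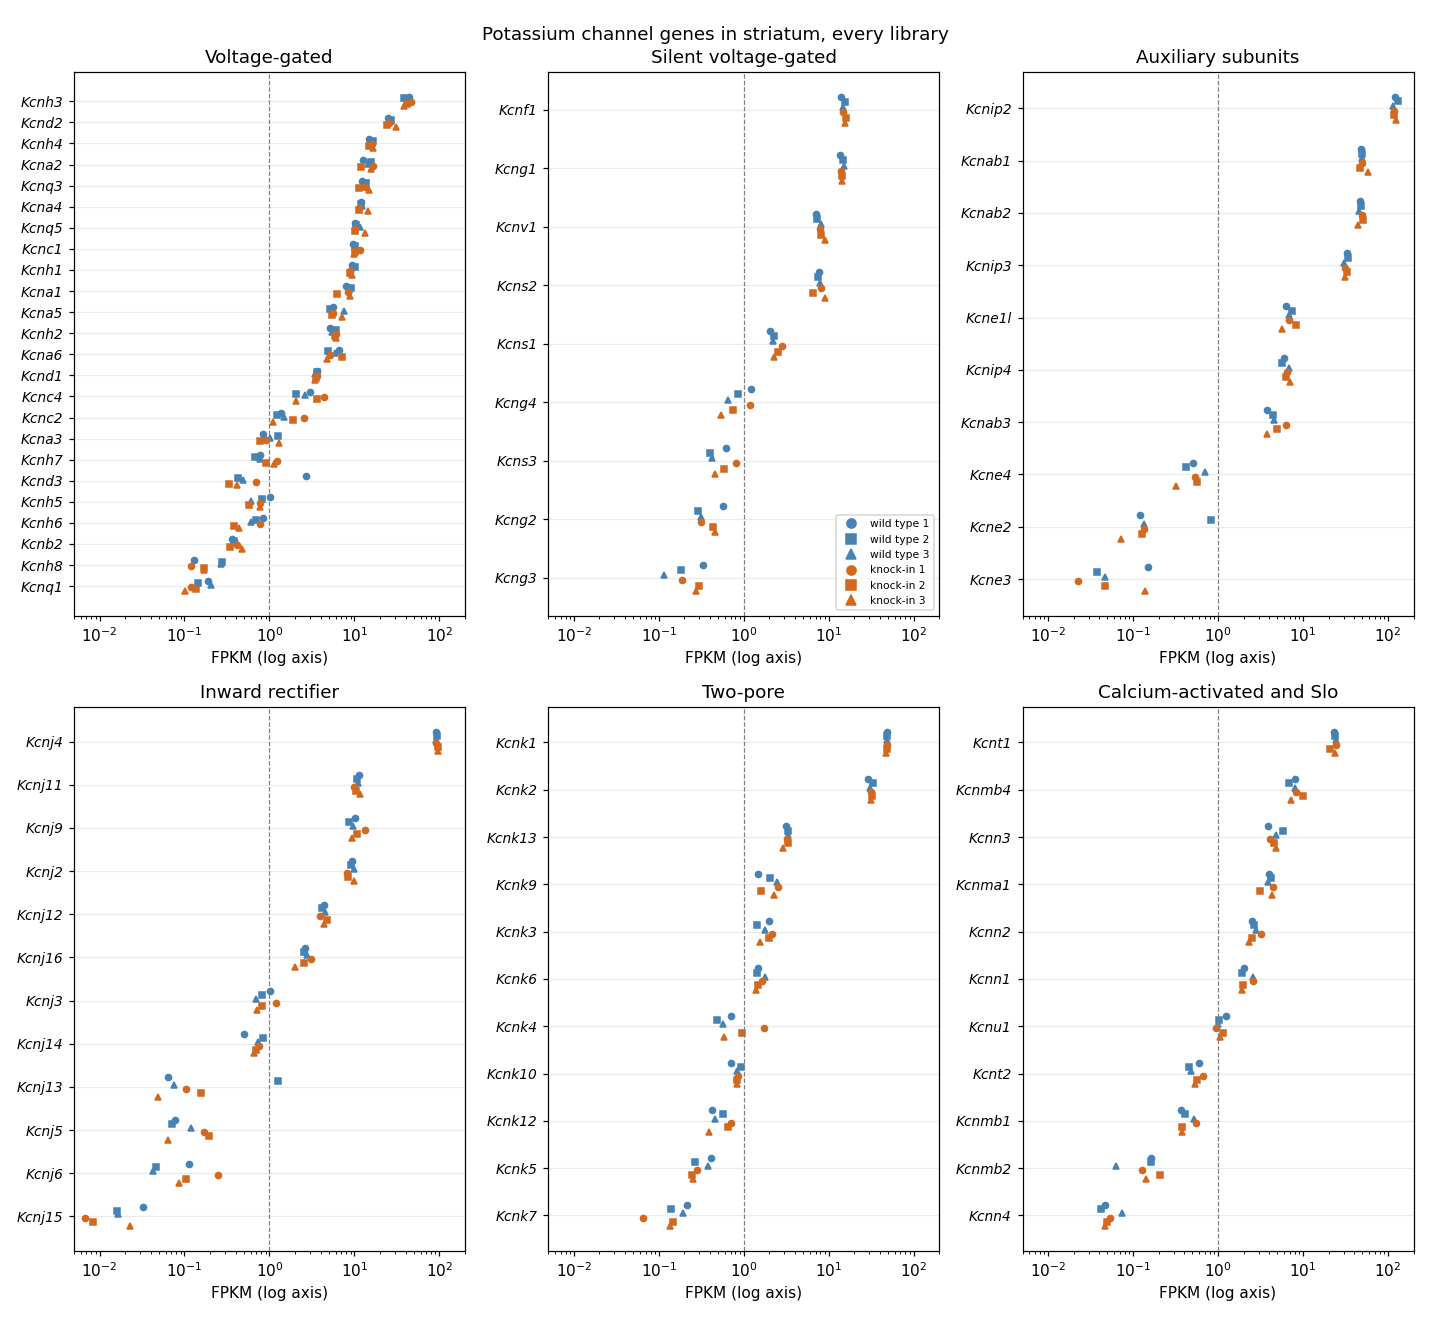
Level of 77 of the 81 potassium channel genes in FPKM on a log axis, 1 panel per class, with genes ordered by their mean, blue symbols for wild-type and orange for knock-in libraries and a dashed line at 1 FPKM. Symbols of the genotypes lie together for most genes, and Kcnj13, Kcne2 and Kcnd3 each have 1 wild-type library far from the other 5.

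The promoter windows of 4 members are shown because they span the range of levels and patterns described next: Kcnip2 and Kcnj4 are the most abundant members, Kcnj9 is an inward rectifier of middle level, and Kcnj13 is near 0 in all libraries but 1. Each window runs from 250 bases before to 50 bases after the gene's start, 5′ to 3′ on the gene's strand, from RefSeq on GRCm38.p6, and capitals mark each CG pair, the site of DNA methylation. All 4 genes lie on the minus strand, with windows at chr19:45816014-45816313, chr15:79505192-79505491, chr1:172329273-172329572 and chr1:87394680-87394979.
Kcnip2: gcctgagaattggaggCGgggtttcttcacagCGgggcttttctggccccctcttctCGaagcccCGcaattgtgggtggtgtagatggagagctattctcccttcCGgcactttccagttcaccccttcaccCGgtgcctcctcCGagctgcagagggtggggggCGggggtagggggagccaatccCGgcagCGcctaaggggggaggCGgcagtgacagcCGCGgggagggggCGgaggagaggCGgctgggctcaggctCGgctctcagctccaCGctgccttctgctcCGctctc
Kcnj4: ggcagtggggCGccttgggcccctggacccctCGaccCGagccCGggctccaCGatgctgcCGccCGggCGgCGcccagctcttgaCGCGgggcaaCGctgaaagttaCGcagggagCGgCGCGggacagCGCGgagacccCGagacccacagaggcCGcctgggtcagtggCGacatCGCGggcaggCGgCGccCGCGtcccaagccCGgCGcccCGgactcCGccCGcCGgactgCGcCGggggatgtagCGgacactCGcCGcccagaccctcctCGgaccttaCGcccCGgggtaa
Kcnj9: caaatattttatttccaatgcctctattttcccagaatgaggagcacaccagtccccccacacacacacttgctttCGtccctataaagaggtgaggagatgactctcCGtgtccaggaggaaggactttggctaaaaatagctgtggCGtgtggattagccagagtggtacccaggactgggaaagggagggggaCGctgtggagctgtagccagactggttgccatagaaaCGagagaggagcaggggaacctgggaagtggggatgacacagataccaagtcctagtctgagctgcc
Kcnj13: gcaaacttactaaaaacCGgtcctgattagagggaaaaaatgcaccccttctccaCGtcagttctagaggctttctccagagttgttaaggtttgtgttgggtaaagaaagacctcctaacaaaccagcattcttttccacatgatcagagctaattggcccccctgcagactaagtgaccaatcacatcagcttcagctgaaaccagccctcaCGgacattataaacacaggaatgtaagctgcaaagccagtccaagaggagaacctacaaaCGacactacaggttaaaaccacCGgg
The Kcnj4 window holds 41 CG pairs, a count reached by 3.46% of all 32851 windows of this length, and the Kcnip2 window holds 18, reached by 29.7%. The windows of Kcnj9 and Kcnj13 hold 5 each, reached by 62.0%, although Kcnj9 stood near 10 FPKM. The CG count therefore did not order these 4 genes by level. A window was matched by symbol for 58 of the 81 members, and the highest count over a gene's windows had a median of 18 in the 33 tested members and 12 in the 25 members below the filter, beside 23 and 10 over all matched genes of the table.

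Among the voltage-gated pore-forming genes, 21 of 28 were tested, 13 with estimates above 0 and 8 below, and their median log2 difference was 0.016. Kcnh3, an ether-a-go-go family channel of forebrain neurons, had the highest level and lies on chromosome 15 at 99224861 to 99242817. It stood at 43.4, 38.6 and 42.5 FPKM in wild-type replicates 1 to 3 and at 46.4, 41.3 and 38.8 FPKM in knock-in replicates 1 to 3. The groups overlapped, and the log2 difference was 0.021 (SE 0.084, 95% interval for the fold 0.886 to 1.16). Its relative Kcnh4 stood at a wild-type mean of 15.8 ± 0.734 and a knock-in mean of 15.8 ± 0.827 FPKM (SD, n = 3), a log2 difference of 0.0050 (SE 0.064, 95% interval for the fold 0.904 to 1.11). Kcnh3 made up 55.4% ± 2.68 of the summed level of the 8 Kcnh genes in wild type and 55.8% ± 2.62 in knock-in. Kcnh1, which encodes the founding ether-a-go-go channel of mammals, had the smallest p of any member with an estimate below 0 and stood at 9.35, 10.2 and 9.17 FPKM in wild-type replicates 1 to 3 and at 8.89, 8.79 and 9.43 FPKM in knock-in replicates 1 to 3. The knock-in level of replicate 3 lay inside the wild-type range, and the log2 difference was -0.076 (SE 0.064, 95% interval for the fold 0.856 to 1.05).

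Kcnd2 encodes the main pore of the somatodendritic A-type current, which opens below threshold and delays firing. It stood at 24.7, 27.1 and 26.6 FPKM in wild-type replicates 1 to 3 and at 25.6, 24.4 and 31.0 FPKM in knock-in replicates 1 to 3. Knock-in replicate 3 was the highest library and knock-in replicate 2 the lowest, so the knock-in spread covered the wild-type range. The log2 difference was 0.038 (SE 0.094, 95% interval for the fold 0.881 to 1.20). Kcnd1 was at 3.42 to 3.65 FPKM over the 6 libraries and Kcnd2 made up 79.7% to 89.0% of the 3 Kcnd genes.

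The Kcna genes encode channels of axons and terminals that limit transmitter release. Kcna2 had the highest mean of the 6 and Kcna3 the lowest, and Kcna2 and Kcna4 made up 29.8% ± 2.35 and 25.3% ± 0.886 of their summed level in wild type, beside 30.8% ± 3.38 and 25.8% ± 2.06 in knock-in (SD, n = 3 each). Kcna1 had the lowest estimate of all tested members and stood at 7.90, 9.16 and 8.72 FPKM in wild-type replicates 1 to 3 and at 8.37, 6.32 and 8.87 FPKM in knock-in replicates 1 to 3. Knock-in replicate 2 was apart from the other 5 libraries. The log2 difference was -0.13 (SE 0.12, 95% interval for the fold 0.757 to 1.11).

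Kcnq3 and Kcnq5 encode subunits of the M-current, a slow potassium current closed by muscarinic receptor signalling. Kcnq3 was at 11.4 to 15.0 FPKM over the 6 libraries and Kcnq5 at 10.1 to 13.4 FPKM. Kcnq3 took 43.4% ± 1.25 of the 5 Kcnq genes in wild type and 43.1% ± 0.594 in knock-in, and Kcnq5 took 35.8% ± 2.03 and 36.6% ± 2.67 (SD, n = 3 each), so these shares differed by less than their spread.

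The Kcnc genes encode fast channels that let interneurons and cortical cells fire at high rates. Kcnc1 was at 9.66 to 11.6 FPKM over the 6 libraries. Kcnc2 stood at 1.36, 1.22 and 1.47 FPKM in wild-type replicates 1 to 3 and at 2.58, 1.91 and 1.10 FPKM in knock-in replicates 1 to 3. Kcnc4 stood at 3.02, 2.07 and 2.60 FPKM in wild-type replicates 1 to 3 and at 4.34, 3.62 and 2.06 FPKM in knock-in replicates 1 to 3. Both were highest in knock-in replicate 1, next highest in knock-in replicate 2 and lowest in knock-in replicate 3. Their log2 differences were 0.25 (SE 0.18) and 0.25 (SE 0.21), the highest estimates of the members, with intervals of the fold of 0.883 to 1.61 and 0.835 to 1.70.

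Silent voltage-gated genes encode subunits that form no channel alone and alter Kcnb channels when they join them. Of 9 members 5 were tested, with a median log2 difference of 0.067. Kcnf1 and Kcng1 led the class, at a wild-type mean of 14.8 ± 0.827 and a knock-in mean of 15.5 ± 0.607 FPKM for Kcnf1 and a wild-type mean of 14.5 ± 0.911 and a knock-in mean of 14.2 ± 0.338 FPKM for Kcng1 (SD, n = 3 each). Their log2 differences were 0.067 (SE 0.064) and -0.028 (SE 0.063), with intervals of the fold of 0.945 to 1.16 and 0.885 to 1.09. Kcns1 had the smallest p of all 52 members and stood at 2.02, 2.24 and 2.22 FPKM in wild-type replicates 1 to 3 and at 2.82, 2.50 and 2.29 FPKM in knock-in replicates 1 to 3. All 3 knock-in libraries were above the wild-type libraries, the nearest pair being 2.24 and 2.29 FPKM. The log2 difference was 0.16 (SE 0.078, 95% interval for the fold 0.985 to 1.27). Kcnv1 stood at 7.01, 7.22 and 8.11 FPKM in wild-type replicates 1 to 3 and at 7.91, 8.01 and 9.01 FPKM in knock-in replicates 1 to 3. Its groups overlapped between 7.91 and 8.11 FPKM, with a log2 difference of 0.14 (SE 0.077, 95% interval for the fold 0.974 to 1.25). Kcns2 was at a wild-type mean of 7.68 ± 0.190 and a knock-in mean of 7.86 ± 1.17 FPKM, a log2 difference of 0.021 (SE 0.098, 95% interval for the fold 0.866 to 1.19).

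Auxiliary subunits bind the pore-forming proteins and change their gating and their transport to the membrane. Of 10 members 7 were tested, 5 with estimates above 0, and the median log2 difference was 0.042. Kcnip2 encodes a calcium-binding partner of Kcnd channels and lies on chromosome 19 at 45791839 to 45816061. It stood at 122, 131 and 115 FPKM in wild-type replicates 1 to 3 and at 119, 119 and 124 FPKM in knock-in replicates 1 to 3. The wild-type libraries held both the highest and the lowest value, and the log2 difference was -0.022 (SE 0.069, 95% interval for the fold 0.881 to 1.10). Kcnip2 took 75.9% ± 0.695 of the summed level of Kcnip2, Kcnip3 and Kcnip4 in wild type and 75.7% ± 0.591 in knock-in (SD, n = 3 each). Kcnip3, whose product is also described as a calcium-regulated transcriptional repressor, was at a wild-type mean of 32.6 ± 1.97 and a knock-in mean of 32.0 ± 0.971 FPKM, a log2 difference of -0.023 (SE 0.065, 95% interval for the fold 0.887 to 1.09).

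Kcnab1 and Kcnab2 encode cytoplasmic beta subunits of Kcna channels, of which the first can add fast inactivation. Kcnab1 stood at 47.9, 49.6 and 49.4 FPKM in wild-type replicates 1 to 3 and at 49.0, 47.1 and 58.3 FPKM in knock-in replicates 1 to 3. Knock-in replicate 3 was apart from the other 5 libraries, which spanned 47.1 to 49.6 FPKM, and the log2 difference was 0.065 (SE 0.086, 95% interval for the fold 0.910 to 1.20). Kcnab2 stood at 47.4, 47.7 and 45.7 FPKM in wild-type replicates 1 to 3 and at 50.2, 50.7 and 44.4 FPKM in knock-in replicates 1 to 3. Here knock-in replicate 3 was the lowest and the other knock-in libraries were the highest, with a log2 difference of 0.042 (SE 0.069, 95% interval for the fold 0.921 to 1.15). Kcnab3 spanned 3.79 to 4.61 FPKM over the wild-type and 3.74 to 6.35 FPKM over the knock-in libraries, and the table's Kcne1l, an X-linked member of the Kcne family, spanned 6.25 to 7.34 and 5.73 to 8.27 FPKM.

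Inward rectifiers hold the resting potential of projection neurons near that of potassium. Of 12 members 6 were tested, 2 with estimates above 0 and 4 below, and the median log2 difference was -0.024. Kcnj4 belongs to the strong rectifiers, with Kcnj2, Kcnj12 and Kcnj14, and lies on chromosome 15 at 79483714 to 79505241. It stood at 91.9, 92.7 and 91.8 FPKM in wild-type replicates 1 to 3 and at 91.7, 96.8 and 95.5 FPKM in knock-in replicates 1 to 3. The wild-type libraries differed by less than 1 FPKM, knock-in replicate 1 was just below them and the other knock-in libraries above. The log2 difference was 0.039 (SE 0.056, 95% interval for the fold 0.938 to 1.13), and that SE was the second smallest of the tested members. Kcnj4 made up 86.4% ± 0.404 of the summed level of the 4 strong rectifiers in wild type and 87.2% ± 0.639 in knock-in (SD, n = 3 each). Kcnj2 stood at 9.30, 9.19 and 9.76 FPKM in wild-type replicates 1 to 3 and at 8.14, 8.40 and 9.90 FPKM in knock-in replicates 1 to 3. Knock-in replicates 1 and 2 were below all wild-type libraries and replicate 3 above them, and the log2 difference was -0.090 (SE 0.079, 95% interval for the fold 0.827 to 1.07). Kcnj12 was at 3.94 to 4.78 FPKM over the 6 libraries.

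Kcnj9 encodes a subunit of the rectifiers opened by G proteins, through which inhibitory receptors act. It stood at 10.1, 8.65 and 9.60 FPKM in wild-type replicates 1 to 3 and at 13.2, 10.7 and 9.47 FPKM in knock-in replicates 1 to 3. Knock-in replicate 1 was the highest library and knock-in replicate 3 lay within the wild-type range, with a log2 difference of 0.21 (SE 0.12, 95% interval for the fold 0.956 to 1.39). Without knock-in replicate 1 that difference was 0.086. Its 3 partner genes were low in this tissue, with Kcnj3 at 0.693 to 1.19 FPKM, Kcnj5 at 0.0647 to 0.196 FPKM and Kcnj6 at 0.0426 to 0.248 FPKM, so that Kcnj9 made up 89.2% to 91.8% of the 4 in every library. Kcnj11 encodes the pore of the channel closed by ATP and was at a wild-type mean of 11.0 ± 0.257 and a knock-in mean of 10.7 ± 0.871 FPKM, a log2 difference of -0.044 (SE 0.069, 95% interval for the fold 0.867 to 1.08). Kcnj16, a gene of astrocytes among other cells, was at 2.02 to 3.07 FPKM.

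The two-pore class held Kcnk1, the tested member with the smallest SE. Of 11 members 6 were tested, 3 on each side of 0, with a median log2 difference of 0.014. Kcnk1 stood at 48.3, 48.6 and 49.0 FPKM in wild-type replicates 1 to 3 and at 49.2, 49.1 and 47.2 FPKM in knock-in replicates 1 to 3. All 6 libraries lay within 2 FPKM of each other, and the log2 difference was -0.0032 (SE 0.053, 95% interval for the fold 0.915 to 1.09). Kcnk2, a channel opened by stretch and by fatty acids, stood at 29.3, 32.9 and 30.9 FPKM in wild-type replicates 1 to 3 and at 31.1, 32.5 and 31.5 FPKM in knock-in replicates 1 to 3. Its groups overlapped, with a log2 difference of 0.030 (SE 0.062, 95% interval for the fold 0.924 to 1.13). Kcnk13, known for the resting conductance of microglia, was at a wild-type mean of 3.27 ± 0.0968 and a knock-in mean of 3.17 ± 0.200 FPKM (SD, n = 3), a log2 difference of -0.037 (SE 0.066, 95% interval for the fold 0.876 to 1.08). Kcnk9, an acid-sensitive leak channel, was at a wild-type mean of 2.00 ± 0.498 and a knock-in mean of 2.16 ± 0.489 FPKM, a log2 difference of 0.077 (SE 0.16, 95% interval for the fold 0.819 to 1.36).

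The calcium-activated class was led by a relative that senses sodium. Of 11 members 7 were tested, 1 with an estimate above 0 and 6 below, and the median log2 difference was -0.022. Kcnt1, the sodium-activated channel, lies on chromosome 2 at 25863734 to 25918273 and stood at 23.5, 23.9 and 24.3 FPKM in wild-type replicates 1 to 3 and at 24.7, 20.9 and 23.9 FPKM in knock-in replicates 1 to 3. Knock-in replicate 2 was apart from the other 5 libraries, and the log2 difference was -0.046 (SE 0.073, 95% interval for the fold 0.860 to 1.09). Kcnma1, the pore of the large-conductance channel, stood at 3.94, 4.18 and 3.91 FPKM in wild-type replicates 1 to 3 and at 4.48, 3.13 and 4.30 FPKM in knock-in replicates 1 to 3. Here too knock-in replicate 2 was the lowest, and the log2 difference was -0.022 (SE 0.11, 95% interval for the fold 0.824 to 1.18). Kcnmb4, its neuronal beta subunit, was at 8.07, 6.89 and 7.999 FPKM in wild-type replicates 1 to 3 and at 8.31, 9.98 and 7.16 FPKM in knock-in replicates 1 to 3. In this gene knock-in replicate 2 was the highest library, opposite to the pore, and the log2 difference was 0.12 (SE 0.11, 95% interval for the fold 0.905 to 1.31). Kcnn3, a small-conductance channel of the pause after spikes, was at a wild-type mean of 4.83 ± 0.925 and a knock-in mean of 4.48 ± 0.344 FPKM (SD, n = 3), a log2 difference of -0.080 (SE 0.12, 95% interval for the fold 0.781 to 1.15). It took 49.7% ± 5.42 of Kcnn1, Kcnn2 and Kcnn3 in wild type and 48.3% ± 6.02 in knock-in.

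Members near 0 made up 29 of the 81 and were not tested. They were 7 voltage-gated, 4 silent, 3 auxiliary, 6 inward rectifier, 5 two-pore and 4 calcium-activated genes, with values from 0.00683 to 2.70 FPKM, and 7 of them reached 1 FPKM in at least 1 library. Genes chosen after their values were seen are described here. Kcnj13, a rectifier of choroid plexus and other epithelia, stood at 0.0639, 1.28 and 0.0745 FPKM in wild-type replicates 1 to 3 and at 0.106, 0.157 and 0.0483 FPKM in knock-in replicates 1 to 3. Kcne2, a subunit of potassium channels of the same epithelium, stood at 0.122, 0.830 and 0.133 FPKM in wild-type replicates 1 to 3 and at 0.136, 0.129 and 0.0718 FPKM in knock-in replicates 1 to 3. Both were highest in wild-type replicate 2, the library in which Ttr was at 374 FPKM, and Kl, another choroid plexus gene, was at 1.21 FPKM there and 0.190 to 0.374 FPKM elsewhere. The third plexus marker, Clic6, was at 5.31 FPKM there and at 3.89 to 4.68 FPKM elsewhere. Kl and Clic6 were both lower in every knock-in library (0.190 to 0.317 and 3.89 to 4.29 FPKM) than in any wild-type library. The part of choroid plexus tissue in these levels was not tested. Of the exon bases of Kcnj13, 623 of 1270 lie opposite those of Gigyf2, so without strand information reads of the 2 genes cannot be told apart. Gigyf2 was measured at 4.14 FPKM in wild-type replicate 2 and between 2.63 and 4.04 FPKM elsewhere.

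Kcnd3, the third gene of the A-type channels, stood at 2.70, 0.422 and 0.485 FPKM in wild-type replicates 1 to 3 and at 0.704, 0.338 and 0.414 FPKM in knock-in replicates 1 to 3. It was high in wild-type replicate 1 alone, where Ttr was at 16.2 FPKM and Slc17a7 at 11.0 FPKM. Kcnh7 stood at 0.767, 0.680 and 0.771 FPKM in wild-type replicates 1 to 3 and at 1.22, 0.922 and 1.13 FPKM in knock-in replicates 1 to 3, with all knock-in libraries above all wild-type libraries. Kcnq1 stood at 0.188, 0.144 and 0.203 FPKM in wild-type replicates 1 to 3 and at 0.118, 0.136 and 0.102 FPKM in knock-in replicates 1 to 3, with all knock-in libraries below. Both lie under the filter on low values.

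Knock-in replicate 1 held the highest value for 22 of the 52 tested members (42.3%), beside 11.8% of all genes tested. It held the lowest value for 6 of them (11.5%), beside 16.5% of all genes. Without knock-in replicate 3, 6 members had an unadjusted p under 0.05, beside 5.91% of all genes tested, and 0 were called (smallest adjusted p = 0.619 in limma). These were Kcnc2 (log2 difference 0.46), Kcnc4 (0.49), Kcnab3 (0.32), Kcnj9 (0.31) and Kcns1 (0.21) as higher and Kcnj2 (-0.17) as lower. That fit picks genes high in knock-in replicates 1 and 2 against wild type, so the rank of those libraries in the first 5 genes is largely set by the choice. Slc17a7 was at 29.9 and 25.2 FPKM in the same libraries. Without knock-in replicate 1 the log2 differences of these 5 were 0.075, 0.086, 0.0070, 0.086 and 0.103. Kcnk4, a two-pore gene under the filter that was picked after its values were seen, stood at 0.713, 0.483 and 0.574 FPKM in wild-type replicates 1 to 3 and at 1.72, 0.958 and 0.579 FPKM in knock-in replicates 1 to 3. Pvalb, a marker of fast-spiking interneurons, reached 26.9 FPKM in knock-in replicate 1 and 22.7 FPKM in knock-in replicate 2. The other 4 libraries had 13.4 to 19.6 FPKM of Pvalb. The sum of the 4 GABAergic interneuron markers did not peak in knock-in replicate 1. That library, at 400 FPKM, lay inside the wild-type range of 364 to 443 FPKM. The highest sum, 448 FPKM, was that of knock-in replicate 2, and the lowest, 362.5 FPKM, that of knock-in replicate 3. With the mean level of the cortical markers as a covariate, the log2 differences of the same 5 genes were -0.038, -0.11, -0.030, 0.031 and 0.10, and that of Kcnj2 was 0.020. The cortical markers summed to 107 and 91.0 FPKM in knock-in replicates 1 and 2, the libraries for which the 5 genes were picked. Their smaller differences with the covariate are therefore also largely set by the choice. In that fit 4 members had an unadjusted p under 0.05, namely Kcnv1 (log2 difference 0.23), Kcnq5 (0.23), Kcnab1 (0.19) and Kcnd2 (0.185), and 0 were called (smallest adjusted p = 0.387), beside 10.6% of all genes tested at that p. The part of cortical tissue in these levels was not tested, and the covariate cannot decide it for genes picked in this way.

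**Figure D4:**
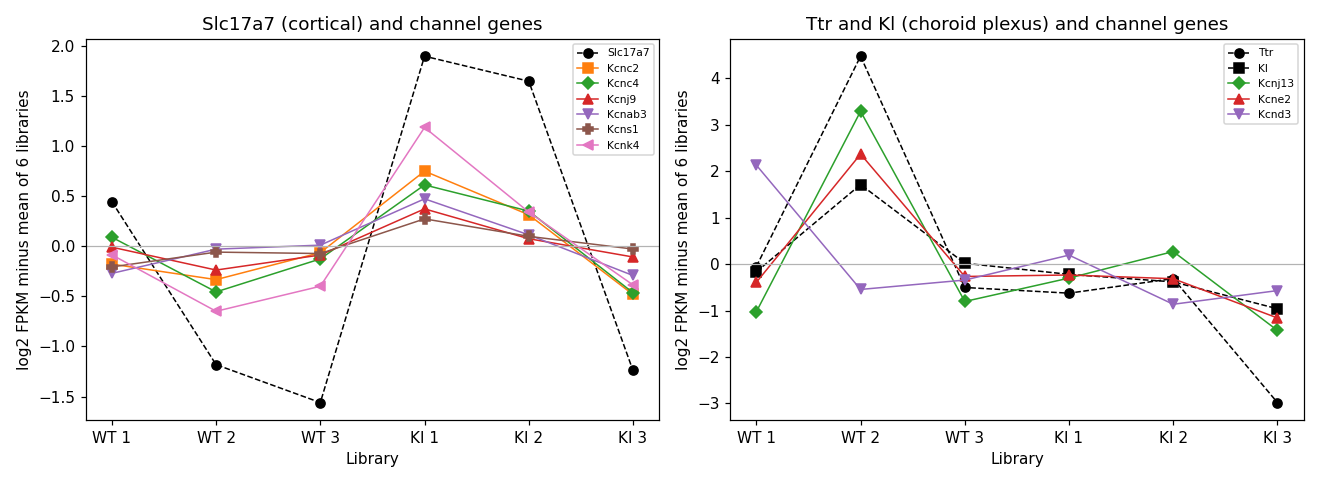
Level of selected genes in each library as log2 FPKM minus the gene's mean over the 6 libraries, with wild type (WT) at the left and knock-in (KI) at the right of each panel, markers of other tissue as dashed black lines and potassium channel genes in colour. Most genes at the left were picked for high levels in knock-in replicates 1 and 2. There Kcnc2, Kcnc4, Kcnj9, Kcnab3, Kcns1 and Kcnk4 peak with Slc17a7 in knock-in replicate 1, and at the right Kcnj13 and Kcne2 peak with Ttr in wild-type replicate 2 and Kcnd3 in wild-type replicate 1.

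In knock-in replicate 2 the levels varied with transcript length. Over the 52 tested members, its deviation from the mean of the 6 libraries, in log2(FPKM + 1), fell with the length of the longest annotated transcript, with Pearson's r of -0.565 and Spearman's rho of -0.558 across genes, which are no independent replicates. Over 14114 tested genes with a length the values were -0.236 and -0.413, and wild-type replicate 1 also had negative values, -0.136 and -0.276, while r was 0.038 to 0.123 in the other 4. In the other 5 libraries r over the members lay between -0.202 and 0.312. The 4 tested members with the longest transcripts, Kcnk9, Kcnma1, Kcnq3 and Kcna2, at 11582 to 12300 nucleotides, deviated by -0.222, -0.266, -0.183 and -0.235 in that library. The 4 with the shortest, Kcne1l, Kcnmb4, Kcna3 and Kcnj4, at 1543 to 2152 nucleotides, deviated by 0.241, 0.284, -0.175 and 0.052, so Kcna3 went the other way. The highest deviation, 0.299, was that of Kcna6, at 5836 nucleotides. Without knock-in replicate 2 the median log2 difference of the voltage-gated class was 0.083, against 0.016 with all libraries, and 0 members were called or passed an unadjusted p under 0.05.

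**Figure D5:**
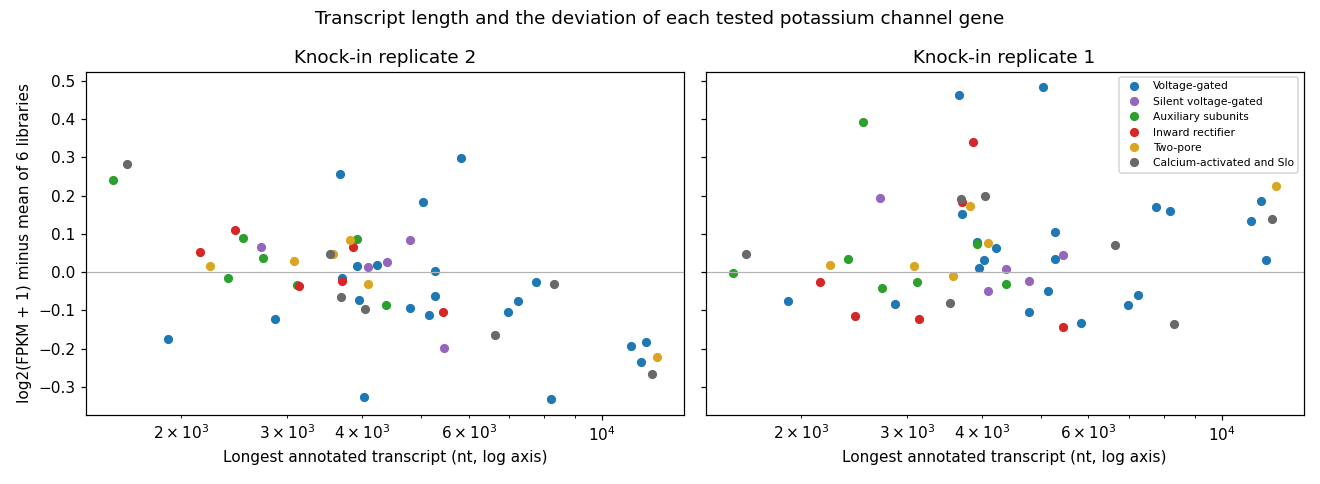
Deviation of each of the 52 tested potassium channel genes from its mean over the 6 libraries, in log2(FPKM + 1), against the length of its longest annotated transcript on a log axis, for knock-in replicates 2 and 1, with colours for the classes. In replicate 2 the points tend to lie lower at longer transcripts (r of -0.565), with Kcna3 at -0.175 and Kcna6 at 0.299 off that trend, and in replicate 1 r is 0.116.

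The channels work with partner proteins, and a list of 39 such genes was compared in the same fit. It holds channels opened by hyperpolarization, regulatory subunits, scaffolds, calmodulins, G protein subunits and the sodium-potassium pump. Of 35 tested genes 0 were called, 1 had an unadjusted p under 0.05 as higher and 0 as lower, beside 0.0212%, 1.25% and 3.02% of all genes tested, and the median log2 difference was 0.015, beside -0.014 over all genes tested. Ank3, the ankyrin that anchors Kcnq channels at the axon's initial segment, was that gene, at 6.64, 7.80 and 7.28 FPKM in wild-type replicates 1 to 3 and at 9.10, 7.65 and 9.20 FPKM in knock-in replicates 1 to 3 (log2 difference 0.23, SE 0.087). Wild-type replicate 2 and knock-in replicate 2 overlapped. Gng2, a G protein gamma subunit, was at a wild-type mean of 5.85 ± 0.663 and a knock-in mean of 7.12 ± 0.932 FPKM (SD, n = 3 each; log2 difference 0.25, SE 0.11). In the other direction, Lrrc26, an auxiliary subunit of the large-conductance channel, was at a wild-type mean of 2.16 ± 0.134 and a knock-in mean of 1.97 ± 0.159 FPKM, and Dlg2, a scaffold that clusters Kcna channels, at a wild-type mean of 37.0 ± 2.72 and a knock-in mean of 35.4 ± 2.61 FPKM. Their log2 differences were -0.092 (SE 0.071) and -0.064 (SE 0.079).

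Overlapping transcripts limit some values. Exons of 28 of the 81 members share bases with another annotated gene in GENCODE, on the opposite strand in all but Kcnab2 and Kcnk4. Among members described above, Kcna6 shares 2355 of its 5945 exon bases with another gene and Kcnj3 shares 1621 of 5215. Kcnmb4 shares 355 and 693 of 3324 with 2 antisense RNAs, Kcnma1 shares 1016 of 16976 and Kcnk2 shares 604 of 4943. Kcnk4 shares 587 of 4465 with the coding gene Catsperz on the same strand, so strand information would not separate that pair. The strand setting of the counting is not given in the sources used here, so reads from such pairs may be mixed.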

How the data were processed

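RNA of dorsal striatum was sequenced in 6 libraries, 3 per genotype. The deposited values are FPKM, 1 column per library, per the file headers. Of tools, the submitters' processing notes list HISAT2, StringTie, SAMtools and FastQC, without versions. The genome build, annotation and strand setting behind the values were not given in the sources used here. Columns were assigned to samples by the codes in the labels. The table holds 0 values at exactly 0. At the best step length, 37.9% to 40.8% of low values of single-transcript genes lay within 0.1 of a whole number of reads, so reads were not recovered, the depth is unknown and precision was taken from the spread between libraries.

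Values were transformed as log2(FPKM + 1). Those genes whose mean reached 1 FPKM were compared between genotypes with limma 3.58.1 in R 4.3.3 (trended prior variance, robust, two-sided, Benjamini-Hochberg over all genes tested). Called means an adjusted p under 0.05. The fit was checked on simulated data. Positions, transcripts and overlaps are from GENCODE M21 on GRCm38, matched by identifier for 81 of 81 members, and promoter windows are from RefSeq.

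The genes named with values are the 4 most abundant members of each class, the 3 with the smallest p in each direction and, among partners, the 2 with the smallest p in each direction. Kcna2, Kcna3, Kcna4, Kcna6, Kcnq3, Kcnq5, Kcnc1, Kcnc2, Kcnc4, Kcnd1, Kcnab3, Kcne1l, Kcnj12, Kcnj16 and members under the filter were named after their values were seen. Values of 4 tested members are not reported here, though these members are in all counts, medians and sums. Members and lists were chosen with earlier results of these data known. Alternatives were another pseudocount, other filters and scalings, a plain variance model, a replicate block, a cortical covariate and leaving out each library.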

Additional observations from a re-analysis of the deposited data

How the results depend on the processing

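Under 14 alternatives 0 potassium channel genes were called, as with all libraries. Of 373 estimates of the 27 members picked by the rule, 35 had the other sign, all of genes called in neither fit. The number of members at an unadjusted p under 0.05 was 0 as designed, beside 4.27% of all genes tested. It was 1 with no filter (Kcnh7), beside 5.12%, and 1 with quantile normalization (Kcns1), beside 4.17%. With the cortical covariate it was 4, beside 10.6%. When 1 library was left out it was 0 to 6, beside 3.12% to 6.05%, the 6 being without knock-in replicate 3, beside 5.91%. Genes called over the whole table numbered 3, and 3 to 14 when 1 library was left out: 8 without wild-type replicate 2, and 11, 14 and 6 without knock-in replicates 1, 2 and 3. The median log2 difference of the auxiliary class was 0.042, -2.14e-07 with no filter and -0.030 with the cortical covariate. With that covariate it was 0.025 for inward rectifiers, against -0.024, and -0.045 for two-pore genes, against 0.014. When 1 library was left out, the median ranged from -0.049 to 0.029 for inward rectifiers, from -0.094 to 0.023 for the calcium-activated class and from 0.027 to 0.125 for silent genes. The cause was not tested. With a replicate block 0 members were called or passed an unadjusted p under 0.05, and 2 genes were called over the table, against 3. The labels state nothing that same-numbered samples share beyond the number. The correlations of their deviations over genes were -0.011, -0.074 and 0.186, and not every sample correlated best with its own number. Deviations from a mean of 3 samples depend on each other, so these correlations cannot decide whether a batch was shared. Quantile and median-of-ratios scaling moved the median of all genes from -0.014 to -0.0010 and 0.0030.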
